A study of Mus musculus with 6 samples.

Results

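Histone methylation at the genes of respiratory complex I was examined in wild-type mouse B cells of the germinal center (GC). The members were the protein-coding genes of the GENCODE mouse annotation for GRCm38 whose symbol begins with Nduf, which were 46 of 21864 coding genes. By their known place in the enzyme they comprised 7 core subunits, 29 accessory subunits and 8 assembly factors, plus the paralogues Ndufa4 and Ndufa4l2, which carry the name but are not subunits of complex I. The members lay on 17 chromosomes, with 2 on the X chromosome. The core subunits encoded by mitochondrial DNA are outside this naming rule, and Ndufb1-ps is annotated as a long noncoding RNA and was not counted.

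Complex I, or NADH:ubiquinone oxidoreductase, is the entry point of the mitochondrial electron transport chain. Its N module oxidizes NADH, its Q module passes the electrons to ubiquinone along iron-sulfur clusters, and its P module in the inner membrane pumps protons. Assembly factors join the modules and leave the finished enzyme. The subunits of the matrix arm and most of those in the membrane are nuclear genes used in nearly every cell type, and GC B cells are known for active oxidative phosphorylation. H3K4me3 is the mark of active and poised promoters, and H3K4me1 marks enhancers and the flanks of promoters.

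The data were 6 Mint-ChIP libraries, 3 for each of the marks H3K4me3 (antibody ab8580) and H3K4me1 (ab8895). Mint-ChIP ligates barcodes to chromatin cut by micrococcal nuclease so that samples can be pooled before immunoprecipitation. Each library was made from 50000 sorted spleen cells of mice that had been given sheep red blood cells 8 days earlier, and all mice were wild type, so there was no mutant or treated group. The labels do not say whether the replicates of a mark came from separate mice, so a standard deviation (SD) over 3 libraries may be technical in part. The extraction text of the labels names an H3K27ac antibody and centrocytes, whereas the sample titles, the listed antibodies, the design text and the methods of the study give the marks above and GC B cells. The titles decided the mark of each library. The GC B cell markers Bcl6, Mef2b, S1pr2, Fas, Cxcr4 and Cd86 had H3K4me3 over a transcription start site (TSS) in 3 of 3 libraries, as did 5 of 5 B cell genes and 3 of 3 plasma cell genes (Prdm1, Sdc1 and Irf4), against 0 of 5 T cell, 0 of 4 myeloid and 0 of 3 erythroid genes. The peak lists held 41936 to 46707 H3K4me3 peaks and 11922 to 24136 H3K4me1 peaks per library. Replicate 1 of H3K4me1 held the most peaks of its mark. Read totals were not used here and sequencing depth is unknown.

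The promoters of 5 members are shown because they mark the ends of the range described below: Ndufb3 and Ndufs3 with high H3K4me3 enrichment, Ndufab1 with the lowest enrichment, Ndufc2 with the narrowest peak, and Ndufaf4 with H3K4me1 in every library. They were chosen after the values were seen. Each runs 5′ to 3′ on the strand of the gene, from 250 bases before to 30 bases after the RefSeq start, on GRCm38. Ndufb3 is at chr1:58586147-58586426 (+), Ndufs3 at chr2:90904692-90904971 (-), Ndufaf4 at chr4:24897833-24898112 (+), Ndufab1 at chr7:122101819-122102098 (-) and Ndufc2 at chr7:97399753-97400032 (+). Capitals mark letters that match a searched motif on either strand (GCGCATGC for NRF1, CCGGAAG for ETS factors), and where capitals run past the length of a motif, its matches on both strands overlap.
Ndufb3: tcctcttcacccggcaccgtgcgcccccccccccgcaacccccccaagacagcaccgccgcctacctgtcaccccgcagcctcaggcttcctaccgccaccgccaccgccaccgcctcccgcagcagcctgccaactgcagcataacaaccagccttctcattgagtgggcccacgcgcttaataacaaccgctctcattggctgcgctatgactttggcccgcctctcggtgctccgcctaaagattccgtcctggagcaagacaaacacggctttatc
Ndufs3: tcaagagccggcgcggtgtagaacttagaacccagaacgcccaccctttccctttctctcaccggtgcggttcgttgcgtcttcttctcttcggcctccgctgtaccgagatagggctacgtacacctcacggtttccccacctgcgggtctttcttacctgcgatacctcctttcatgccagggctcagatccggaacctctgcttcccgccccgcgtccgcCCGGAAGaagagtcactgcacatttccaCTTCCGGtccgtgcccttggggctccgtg
Ndufaf4: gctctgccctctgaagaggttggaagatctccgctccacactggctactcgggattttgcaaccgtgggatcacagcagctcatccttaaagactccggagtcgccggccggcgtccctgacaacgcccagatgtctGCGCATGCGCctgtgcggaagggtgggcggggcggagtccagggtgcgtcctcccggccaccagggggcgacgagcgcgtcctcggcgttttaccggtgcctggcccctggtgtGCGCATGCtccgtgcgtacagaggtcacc
Ndufab1: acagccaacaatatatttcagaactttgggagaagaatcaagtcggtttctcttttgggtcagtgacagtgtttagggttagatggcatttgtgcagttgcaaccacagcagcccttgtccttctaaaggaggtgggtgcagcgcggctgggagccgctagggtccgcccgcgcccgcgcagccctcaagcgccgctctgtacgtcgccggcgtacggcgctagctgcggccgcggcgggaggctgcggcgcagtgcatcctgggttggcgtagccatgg
Ndufc2: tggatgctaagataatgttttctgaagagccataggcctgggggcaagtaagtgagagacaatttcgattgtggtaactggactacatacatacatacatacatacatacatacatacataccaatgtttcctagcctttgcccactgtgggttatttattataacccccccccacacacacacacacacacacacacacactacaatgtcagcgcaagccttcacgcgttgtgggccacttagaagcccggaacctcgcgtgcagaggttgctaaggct
H3K4me3 covered the whole printed stretch in 3 of 3 libraries at Ndufb3, Ndufs3 and Ndufaf4, in 2 at Ndufab1 and in 0 at Ndufc2, whose peak reached into the stretch in 2 libraries. Over the 300 bases of the reference entry, the Ndufc2 promoter held 8 CpG dinucleotides and 47.3% G and C, the Ndufb3 promoter 22 and 62.3%, and the Ndufaf4 promoter 28 and 66%.

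To ask whether the complex I promoters carry the mark of active promoters, H3K4me3 peaks within 5 kb of any TSS of a coding transcript were collected. All 46 members had such a peak in 3 of 3 libraries (46 of 46, 95% Wilson interval 92.3% to 100% for counting error over genes, which are not replicate samples), against 56.2% of all coding genes in 3 of 3 and 59.6% in at least 2 of 3 libraries. The 13039 coding genes with H3K4me3 in at least 2 of 3 libraries, members included, are the reference for what follows. A peak covered a TSS in 3 of 3 libraries at 41 of 46 members (89.1%, interval 77.0% to 95.3%), against 64.5% of the coding genes with H3K4me3 and 38.4% of all coding genes. In single libraries the share of members with a covered TSS was 97.8%, 93.5% and 93.5%, and that of the reference genes 78.5%, 70.7% and 74.0%. Genes with the mark in like housekeeping groups had a TSS covered in 3 of 3 libraries at similar shares, 88.2% in complexes II to V, 86.2% among ribosomal protein genes and 94.6% among proteasome subunits.

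The 5 exceptions were named after their values were seen. Ndufa4l2, a paralogue of Ndufa4 known to be induced by hypoxia, had no covered TSS in any library. Its nearest H3K4me3 peak ended 267, 893 and 825 bp from the TSS, on the upstream side. The other 4 missed in 1 library each by a short gap, 215 bp at Ndufa1, 98 bp at Ndufab1, 43 bp at Ndufc2 and 21 bp at Ndufs4.

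**Figure D1:**
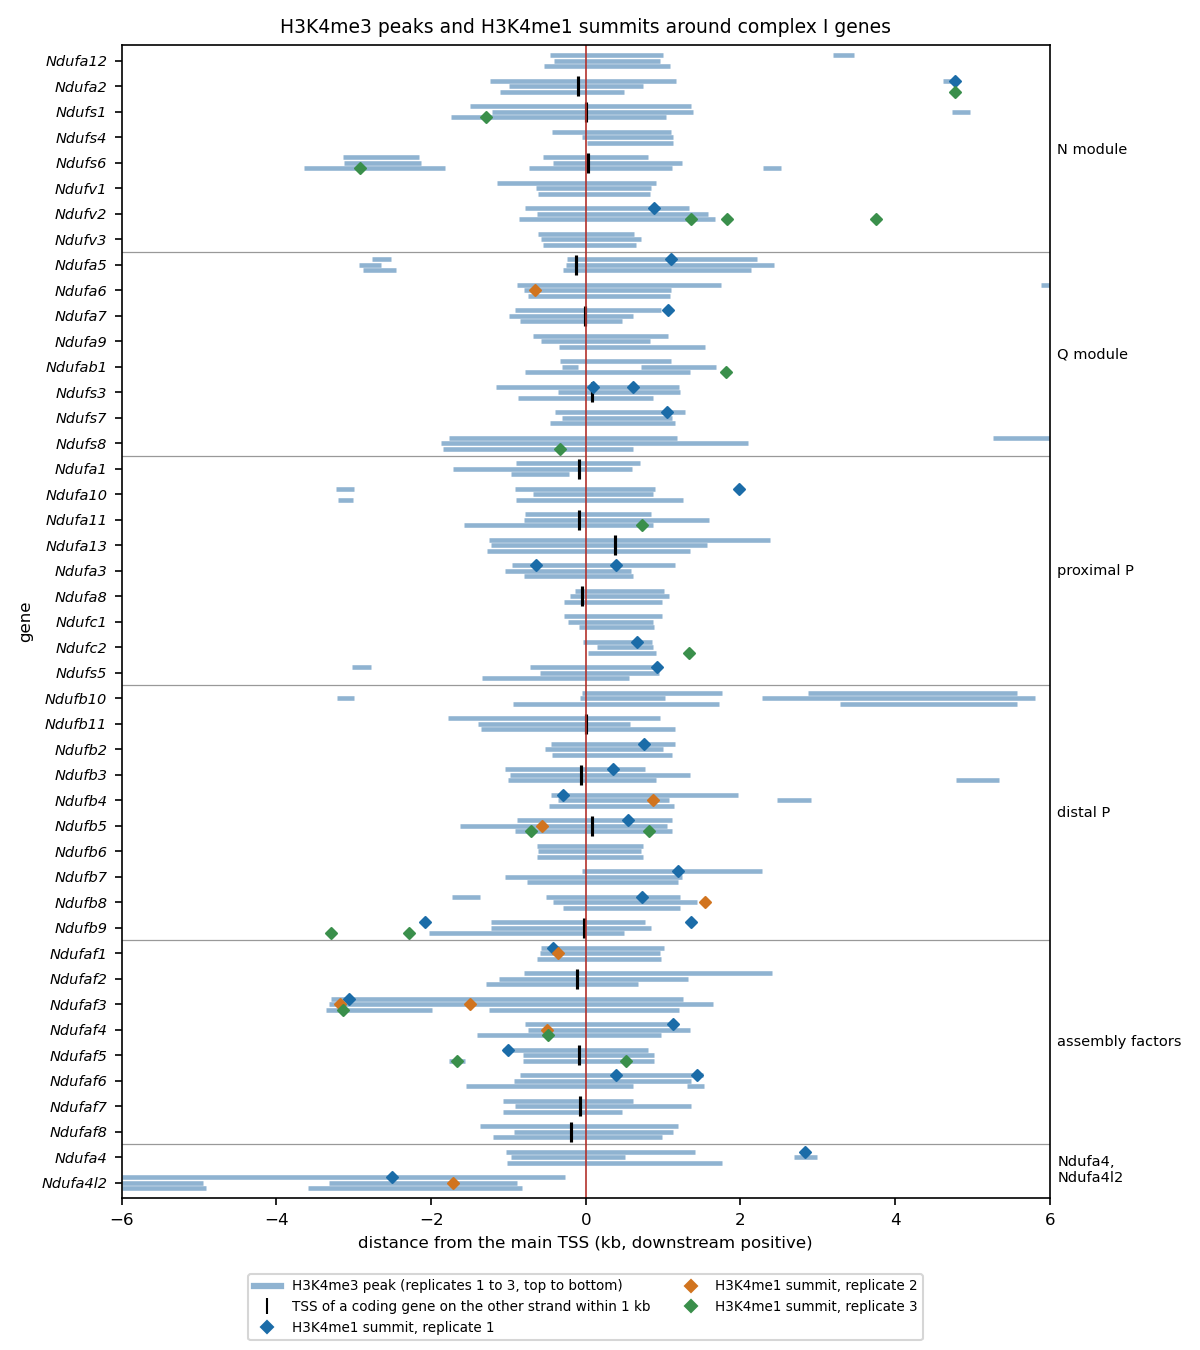
H3K4me3 peaks (bars, 3 libraries from top to bottom) and H3K4me1 summits (diamonds, coloured by library) around the main TSS of members, in kb with downstream positive and cut at 6 kb; black ticks mark the TSS of a coding gene on the other strand within 1 kb. Bars cross the TSS in 3 of 3 libraries at most genes, Ndufa4l2 has its peaks upstream only, and Ndufb10 has a further broad peak downstream.

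Coverage was then followed outward from the TSS. At the main TSS, taken from the principal transcript, 94.2% ± 3.32 of members lay under a peak (mean ± SD, 3 libraries), against 69.7% ± 4.12 of reference genes. At 2 kb downstream the order was the other way, with 5.07% ± 3.32 of members and 16.3% ± 2.11 of reference genes. Where a peak covered the main TSS, its median extent at members was 797 ± 58.1 bp upstream and 1068 ± 47.7 bp downstream, beside 752 ± 43.6 and 1128 ± 58.0 bp at the reference genes.

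**Figure D2:**
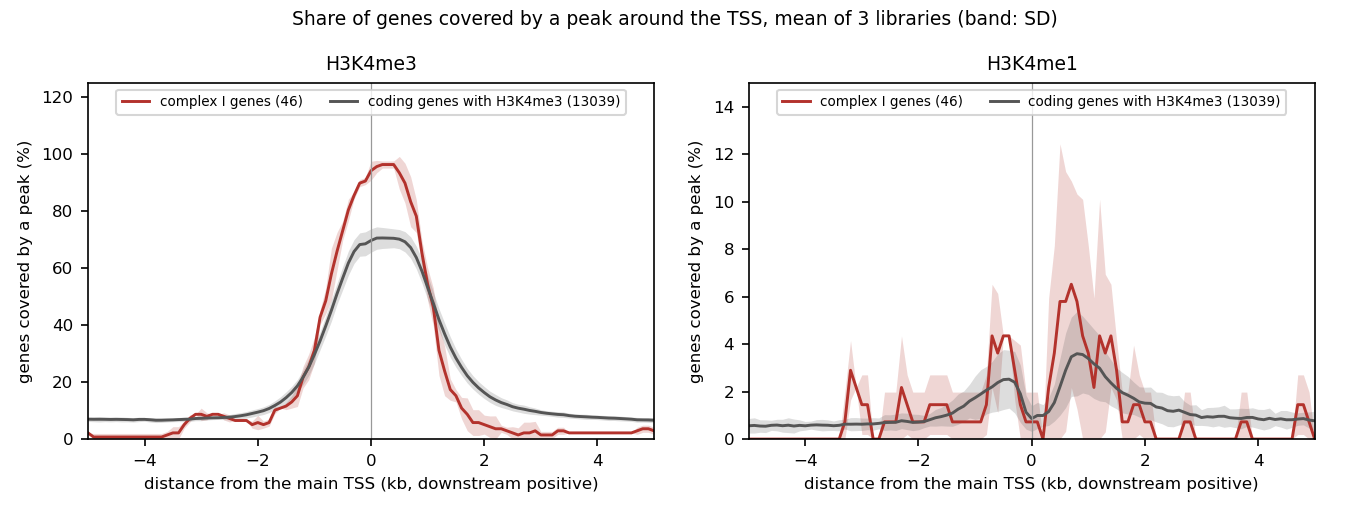
Share of genes under a peak (percent) at each distance from the main TSS (kb, steps of 100 bp), for 46 complex I genes and 13039 coding genes with H3K4me3; lines are means of 3 libraries and bands the SD. H3K4me3 at the TSS covered 94.2% of members and 69.7% of reference genes, and H3K4me1 lay on both sides of the TSS with a dip at it.

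The width of the mark was then compared, taking the widest H3K4me3 peak within 5 kb of a TSS. Its median over members was 1902 bp, 1796 bp and 1870 bp in the 3 libraries (1856 ± 54.2), and over the reference genes 2002, 1748 and 1774 bp (1841 ± 140). The members' median was thus lower in replicate 1 and higher in replicates 2 and 3, and the log2 ratio of 0.01 ± 0.08 (SD, n = 3) was smaller than its spread. It was −0.12 when the peak was required to lie over a TSS and −0.10 with the summed length of the peaks. The members occupied the middle of the range, with the 10th and 90th percentiles at 1293 ± 66.7 and 2743 ± 199 bp, against 701 ± 97.0 and 3673 ± 318 bp for the reference genes. No member exceeded 4 kb in 3 of 3 libraries (0 of 46, reference 4.27%), and 1 of 46, Ndufc2, stayed under 1 kb in 3 of 3 (reference 5.81%). Width was above the library's reference median in 3 of 3 libraries at 15 members (reference genes 33.9%) and below it at 12 (30.05%).

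Of the 5 members with the smallest mean width, 3 were accessory subunits of the membrane arm. The proximal and distal P modules of that arm held 9 and 10 of the 46 members. At Ndufc2, an accessory subunit of the proximal P module, the widest peak measured 897, 732 and 888 bp. At Ndufc1 of the same module it measured 1268, 1094 and 976 bp. At Ndufa8, also of this module, the widths were 1146, 1286 and 1266 bp. These genes lay below the members' median in every library. Ndufv3, an accessory subunit of the N module, gave 1244, 1288 and 1193 bp. Ndufs4, an N module subunit whose loss in mice is a model of Leigh syndrome, gave 1543, 1175 and 1110 bp.

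Of the 5 members with the largest mean width, 2 owed it to a peak away from their TSS. Ndufa4l2 measured 6869, 2573 and 2764 bp, and none of these peaks covered its TSS. Ndufb10, an accessory subunit of the distal P module, measured 2713, 3529 and 2661 bp, but in replicates 1 and 2 the widest peak lay 2869 and 2279 bp downstream and covered the start of Rps2, a ribosomal protein gene whose main TSS is 4415 bp downstream. The peak over the Ndufb10 TSS itself was 1811 and 1097 bp wide in those libraries. At Ndufaf3, an assembly factor that acts on the Q module, the peak measured 4558, 4963 and 2453 bp. In replicates 1 and 2 that peak also covered the start of Dalrd3, which lies on the other strand at −2452 bp, and in replicate 3 it was split there. Ndufs8, a core subunit with iron-sulfur clusters, measured 2956, 3976 and 2466 bp, with its own TSS covered in 3 of 3 libraries. Ndufa13, an accessory subunit also known as GRIM-19, measured 3631, 2783 and 2622 bp with a start of Tssk6 and a start of Yjefn3 under the same peak. The main TSS of Yjefn3 is 8583 bp downstream and outside this peak.

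Across all members, the widest peak covered a TSS of the gene in 3 of 3 libraries at 39 of 46, and the peak with the highest enrichment did so at 38. For the reference genes only single libraries were counted. In single libraries the widest peak covered the TSS in 91.3% to 93.5% of members and 67.5% to 73.2% of reference genes. The peak with the highest enrichment did so in 89.1% to 95.7% of members and 66.4% to 72.9% of reference genes. At members the SD of log2 width was 0.30 between libraries within a gene and 0.44 between gene means, and at coding genes with H3K4me3 in 3 of 3 libraries it was 0.49 and 0.85.

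**Figure D3:**
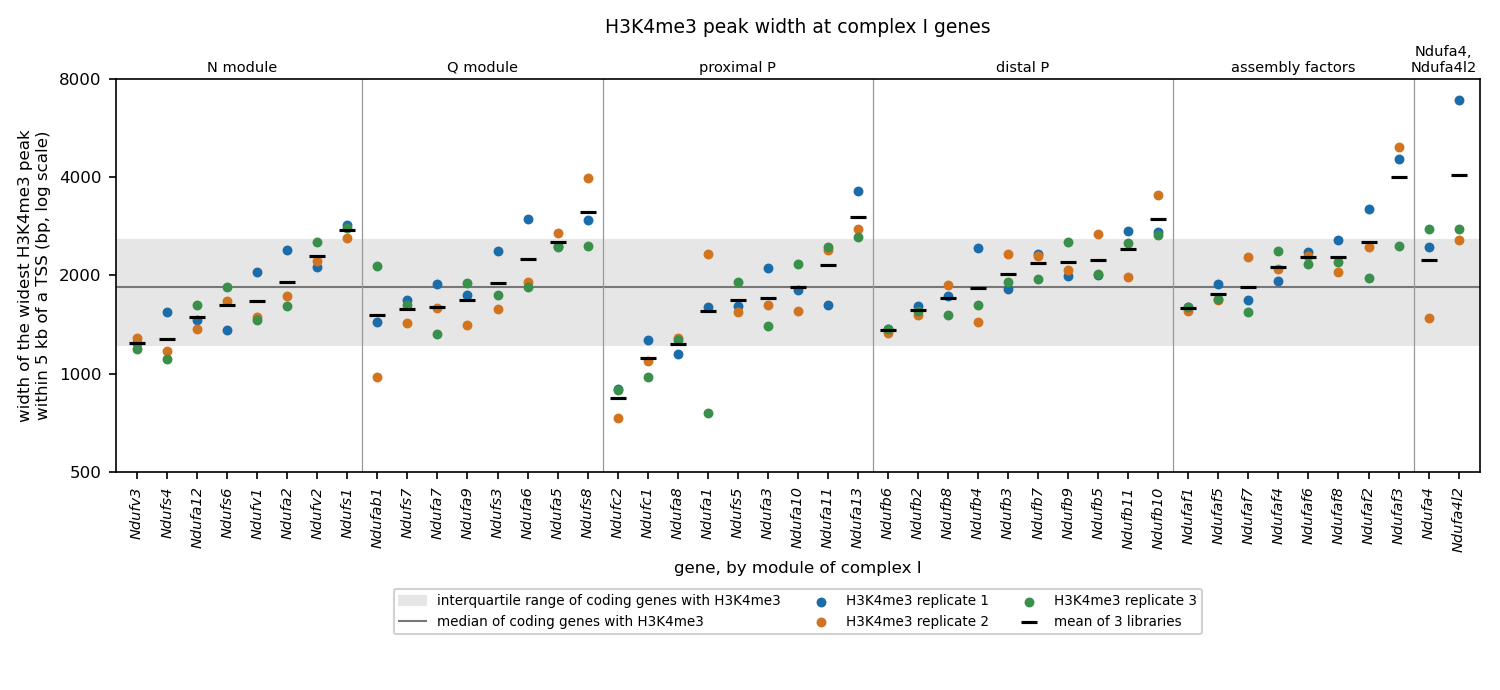
Width of the widest H3K4me3 peak within 5 kb of a TSS (bp, log scale) for members, grouped by module and ordered by mean; dots are the 3 libraries, black bars their mean, the grey band and line the interquartile range and the median of coding genes with H3K4me3. Most members sit inside the band by their means, with Ndufc2 and Ndufc1 below it and 6 members above it, among them Ndufa4l2 and Ndufaf3.

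The enrichment of H3K4me3, given by the peak caller as a fold over local background and averaged over each peak, was taken as the highest value among the peaks within 5 kb. The members' median fold was 8.36, 6.65 and 6.94 (7.32 ± 0.915), and that of the reference genes 6.67, 6.07 and 6.04 (6.26 ± 0.354). The members were higher in 3 of 3 libraries, and the log2 ratio of medians, 0.33, 0.13 and 0.20, averaged 0.22 ± 0.10 (SD, n = 3). Among members, 25 of 46 lay above the reference median in 3 of 3 libraries, where 32.5% of reference genes did, and 4 of 46 lay below it, where 28.7% did. In the upper quartile of the library in 3 of 3 were 14 of 46 members (30.4%), against 11.3% of the reference genes, and in the lower quartile 0 of 46 against 10%. With peaks over a TSS only, the log2 ratio was 0.18. It shrank to 0.10 ± 0.13 when only peaks with a −log10 q-value of at least 5 were kept, which was smaller than its spread. With the 10000 best peaks of each library it was 0.086 ± 0.075.

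Folds were not scaled between libraries, so single genes are described by their percentile within each library. Ndufb3, an accessory subunit of the distal P module, had the highest mean percentile: its fold was 11.6, 12.4 and 9.64, at the 97.8th, 99.5th and 96.5th percentiles. Ndufs3, a core subunit of the Q module, had folds of 11.2, 9.02 and 10.9 (97.1, 94.1 and 98.6). Ndufaf2, which assists the late steps of N module attachment, had folds of 10.9, 8.52 and 11.3 (96.2, 91.0 and 99.1). These genes stayed above the 90th percentile in every library. Ndufaf7, a methyltransferase, had folds of 11.1, 9.36 and 8.99 (97.0, 95.4 and 93.7). Ndufv2, a core iron-sulfur subunit of the N module, had folds of 12.2, 8.61 and 9.35 (98.7, 91.8 and 95.5). Of these 5, all but Ndufv2 shared their peak with the start of a coding gene on the other strand, respectively Fam126b, Kbtbd4, Ercc8 and Cebpz.

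At the other end, Ndufab1, the mitochondrial acyl carrier protein that is also a subunit of complex I, had folds of 5.44, 4.67 and 4.02, at the 25.8th, 18.6th and 9.28th percentiles. Ndufb4 of the distal P module had folds of 5.51, 5.48 and 4.51 (26.9, 36.2 and 16.9). Ndufb10 had folds of 5.16, 4.74 and 5.96 (21.3, 20.1 and 47.9), the value of replicate 2 coming from the downstream peak. The assembly factor Ndufaf6 was the steadiest of this group. Its folds were 5.73, 5.41 and 5.05 (31.3, 34.4 and 27.3). Ndufc1 had folds of 6.70, 4.55 and 5.20 (50.6, 16.5 and 30.02).

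**Figure D4:**
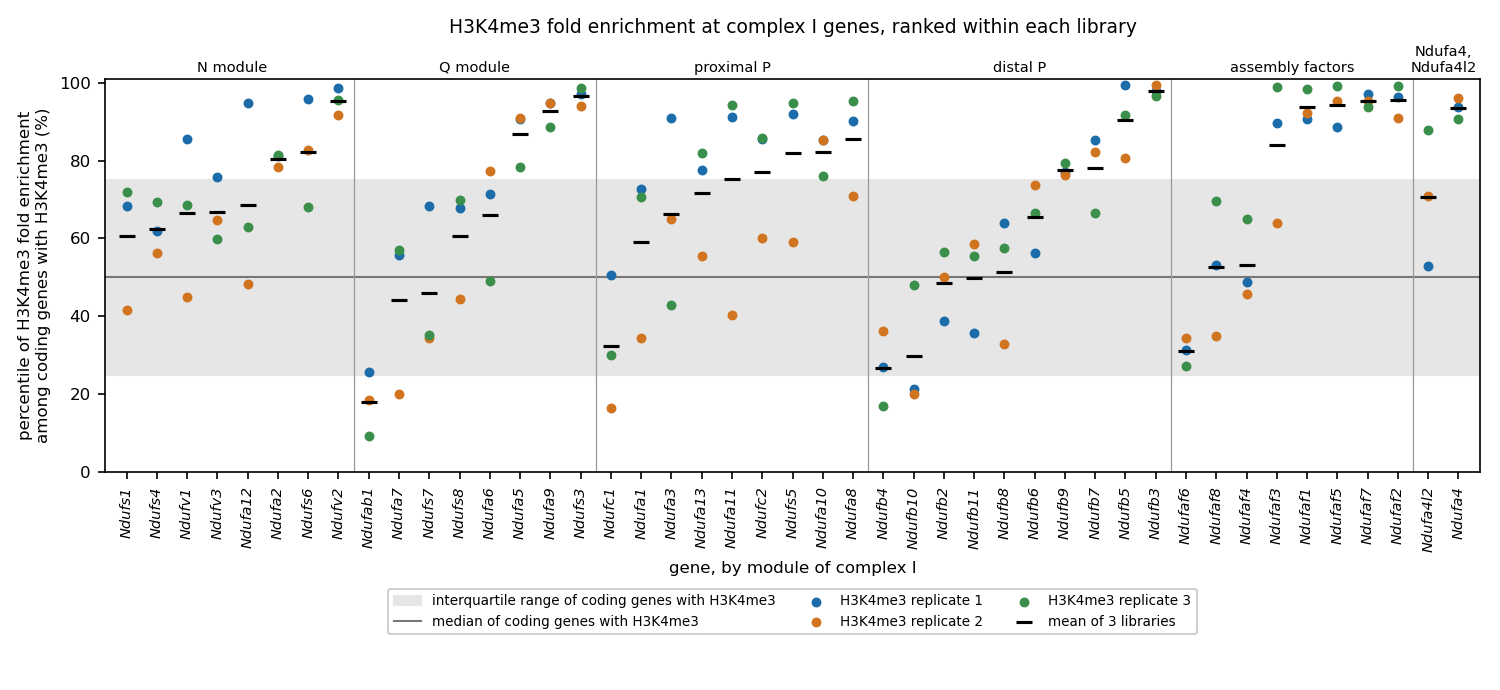
Percentile of the H3K4me3 fold enrichment of members among coding genes with H3K4me3 in the same library (percent), grouped by module and ordered by mean; dots are the 3 libraries, black bars their mean, and the grey band is the interquartile range of the reference genes. Members concentrate in the upper part of the scale, 25 of 46 stay above the median in 3 of 3 libraries, and some genes such as Ndufa12 and Ndufa11 differ widely between libraries.

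The core subunits that hold the redox centers spread over much of this range. Ndufv1, which binds NADH and FMN, had folds of 8.90, 5.86 and 6.87 and widths of 2054, 1488 and 1457 bp. Ndufs1, the largest iron-sulfur subunit, had folds of 7.64, 5.71 and 7.03 and widths of 2862, 2600 and 2784 bp. Ndufv2 had widths of 2123, 2210 and 2529 bp. Ndufs1 and Ndufv2 were wider than the reference median in 3 of 3 libraries, as was Ndufs8 of the Q module. In the Q module, Ndufs7, an iron-sulfur subunit near the ubiquinone pocket, had folds of 7.64, 5.41 and 5.43 and widths of 1683, 1432 and 1626 bp, below the reference median width in 3 of 3 libraries. Ndufs8 had folds of 7.61, 5.83 and 6.92. Ndufs3 had widths of 2374, 1573 and 1746 bp. Over the 7 core subunits the median fold was 6.81 ± 0.896 and the median width 2019 ± 148 bp, beside 7.17 ± 0.926 and 1737 ± 109 bp over the 29 accessory subunits.

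By module, the log2 ratio of the median fold to that of the reference genes was 0.22 ± 0.15 in the N module (8 genes), 0.17 ± 0.03 in the Q module (9), 0.28 ± 0.17 in the proximal P module (9), 0.13 ± 0.03 in the distal P module (10) and 0.50 ± 0.19 for the assembly factors (8). The means were positive for each group, and their spread over libraries overlapped for most pairs of groups. Median widths were 1665 ± 117, 1776 ± 159, 1521 ± 109, 1982 ± 48.1 and 2128 ± 58.6 bp in the same order. The proximal P module was narrower than the reference by a log2 ratio of −0.28 ± 0.09, and these 8 assembly factors wider by 0.21 ± 0.11.

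Assembly factors whose symbols do not begin with Nduf, 11 genes fixed as a list, had H3K4me3 over a TSS in 3 of 3 libraries at 11 of 11, with a median fold of 6.65 ± 0.793. Their log2 ratios to the reference were 0.08 ± 0.10 for fold and −0.01 ± 0.11 for width. The 8 Nduf assembly factors had 0.50 ± 0.19 and 0.21 ± 0.11, so their values did not extend to this list. The genes of complexes II to V had promoter-proximal H3K4me3 in 3 of 3 libraries at 68 of 72. The 4 without it were Cox6a2, Cox7b2, Cox8b and Cox8c, complex IV isoforms known from muscle, testis or other tissues. Over the 68, the median width was 1902 ± 144 bp and the median fold 6.65 ± 0.529, a log2 ratio to the reference of 0.09 ± 0.04. Proteasome subunits (37 of 39 with the mark) had a median fold of 7.31 ± 0.550 and a log2 ratio of 0.22 ± 0.06, the same as the members at this precision. Ribosomal protein genes (80 of 82) had a ratio of 0.08 ± 0.01 and the widest median, 2210 ± 169 bp.

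Many complex I genes lay beside another promoter. A coding TSS on the opposite strand within 1 kb was found at 18 of 46 members (39.1%, interval 26.4% to 53.5%), against 16.7% of the reference genes, and a TSS of any other coding gene within 5 kb at 24 of 46 (52.2%), against 27%. In complexes II to V the shares were 30.9% and 50%, in ribosomal protein genes 17.5% and 41.2%, and in proteasome genes 24.3% and 32.4%. The peak over the main TSS also covered another coding gene's TSS in 3 of 3 libraries at 17 of 46 members (37.0%), against 13.9% of the reference genes. Partners included Eef1b2, a translation elongation factor gene whose start is 3 bp from that of Ndufs1, and Rps28, 10 bp from Ndufa7. At Ndufs6, Ndufb5 and Ndufs3 the 5′ ends overlapped those of Mrpl36, Mrpl47 and Kbtbd4, the former pair being mitochondrial ribosomal proteins. Peaks at such shared starts cannot be assigned to either gene.

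Members with such a partner had a median fold of 9.36, 7.34 and 7.61, and those without 7.72, 6.44 and 6.77. The former were higher in 3 of 3 libraries, by a log2 ratio of 0.21 ± 0.06, and over all reference genes the same ratio was 0.18 ± 0.03. Width differed by 0.24 ± 0.22 among members and 0.34 ± 0.03 among reference genes. With a partner the peak extended 1036 ± 49.2 bp upstream of the members' TSS, and without one 663 ± 82.0 bp, while the downstream extents of 1021 ± 135 and 1085 ± 55.4 bp lay within their spread. Members without a partner still had a higher median fold than the reference genes without one, at 6.98 ± 0.664 beside 6.11 ± 0.325. Among genes with no other coding TSS within 5 kb, the log2 ratio of members to reference was 0.20.

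H3K4me1 was sought within the same 5 kb. It was found at 24, 8 and 14 of 46 members, or 52.2% (interval 38.1% to 65.9%), 17.4% (9.09% to 30.7%) and 30.4% (19.1% to 44.8%). Among the reference genes the shares were 43.9%, 27.8% and 25.8%. The members' share was higher in replicates 1 and 3 and lower in replicate 2, and the difference of 0.84 ± 9.93 percentage points (SD, n = 3) was far smaller than its spread and turned to −9.32 with the 10000 best peaks of each library. By gene, 31 of 46 members had H3K4me1 in at least 1 library (reference 58.3%), 12 in at least 2 (reference 28.9%) and 3 in 3 of 3 (reference 10.3%). The share in complexes II to V was 36.3% ± 10.4, in ribosomal protein genes 29.2% ± 13.0 and in proteasome genes 34.2% ± 4.13.

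**Figure D5:**
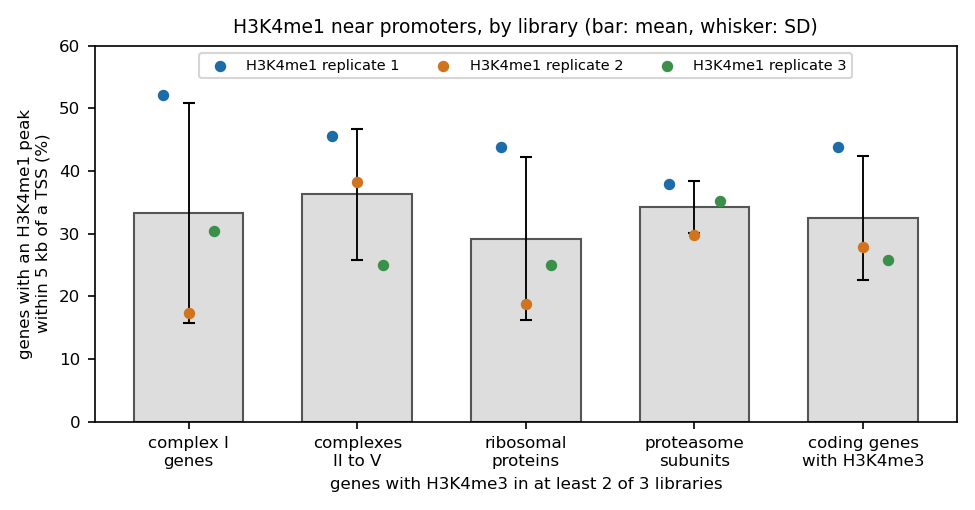
Share of genes with an H3K4me1 peak within 5 kb of a TSS (percent), among genes with H3K4me3 in at least 2 of 3 libraries; bars are means, whiskers the SD and dots the 3 H3K4me1 libraries. Complex I genes range from 17.4% to 52.2% between libraries, around the 25.8% to 43.9% of all coding genes with H3K4me3.

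The position of the H3K4me1 peaks was counted at members only, all of which had H3K4me3 within the same 5 kb. No reference share stands beside these counts. There were 56 such peaks over the 3 libraries, with a median width of 261.5 bp, beside 253 to 270 bp for all peaks of these libraries, and a median distance of 698.5 bp from the nearest TSS. Of the 56, 48 overlapped an H3K4me3 peak of at least 1 library, and 38 overlapped one in all 3. The summit of 33 lay downstream of the main TSS, and 1 peak, in replicate 1 at Ndufs3, covered a TSS. The 56 peaks formed 48 places, of which 41 were found in 1 library, 6 in 2 and 1 in 3, so few were found again.

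The place found in 3 libraries was at Ndufaf3, at chr9:108570306-108570690 (GRCm38), with folds of 5.61, 5.998 and 8.04. Its mean summit position was −3128 bp from the Ndufaf3 TSS, and it lay over an exon of Dalrd3. Ndufaf4, an assembly factor that works with Ndufaf3, had peaks in 3 libraries: in replicates 2 and 3 at chr4:24897342-24897748, upstream of the promoter printed above and in no annotated gene, and in replicate 1 downstream of the TSS with its summit at 1133 bp. Ndufb5, of the distal P module, had H3K4me1 on both sides of its TSS. Its upstream place at chr3:32736133-32736515 in an intron of Mrpl47 was found in replicates 2 and 3. Its downstream place at chr3:32737413-32738008, in introns of Ndufb5 and Mrpl47, was found in replicates 1 and 3, with folds of 6.32 and 7.70.

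The other members with H3K4me1 in 2 libraries were Ndufaf1, Ndufaf5, Ndufc2, Ndufa4l2, Ndufb9, Ndufb4, Ndufv2, Ndufa2 and Ndufb8. At Ndufaf1, a factor for the membrane arm, the same place at chr2:119662859-119663361, in no annotated gene, was marked in replicates 1 and 2 with folds of 4.18 and 5.49. At Ndufb9, of the distal P module, chr15:58931400-58931839, in introns of its neighbours Tatdn1 and Gm49356, was marked in replicates 1 and 3 with folds of 3.66 and 4.39. At Ndufa2, of the N module, the place shared by replicates 1 and 3 lay 4774 bp downstream in an intron of Tmco6. At the remaining 6 of these 9 genes the libraries marked different places.

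Ndufa4, now known as a subunit of complex IV, and its paralogue Ndufa4l2 differed in where the mark lay. Ndufa4 had H3K4me3 over its TSS in 3 of 3 libraries with folds of 10.1, 9.59 and 8.54 and widths of 2442, 1480 and 2775 bp, and H3K4me1 in 1 library. Ndufa4l2 had folds of 6.81, 6.99 and 8.17, from peaks that did not reach its TSS, and H3K4me1 in replicates 1 and 2. The percentiles of the pair, 93.8, 96.1 and 90.8 against 52.9, 71.0 and 87.8, did not overlap. The same held for 494 of the 1035 pairs of members (47.7%), so this does not set the pair apart.

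Further from the genes, at 5 to 50 kb, members had a median of 4, 4 and 3 H3K4me3 peaks and 1, 1 and 0.5 H3K4me1 peaks, where the reference genes had 4, 3 and 3 and 1, 1 and 1. The members are short genes, with a median length of 8090 bp against 21876 bp, and 45.7% of them had a single TSS, as did 44.6% of the reference genes.

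The promoter sequences were compared with RefSeq entries of 300 bases, 250 before and 50 after the start, which were matched for 40 of 46 members and 9954 reference genes. Median G and C content was 59.2% at members and 61% at reference genes, and the ratio of observed to expected CpG exceeded 0.6 at 34 members (85%), 72.8% of the reference genes and 12.6% of coding genes with no promoter-proximal H3K4me3. Each motif was searched as fixed letters on both strands. GCGCATGC, the core bound by NRF1, a regulator of respiratory genes, was in 5 members (12.5%) and 5.54% of reference promoters. CCGGAAG of ETS factors was in 6 (15%) and 18.7%. TATAAA was in 4 (10%) and 7.05%. AAGATGGC, the letters bound by YY1, were in 8 (20%) and 4.71%.

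The YY1 letters are shown because each match at a member lay shortly after the RefSeq start. The windows below hold 30 bases on the strand of the gene, with the match in capitals. They are at chr7:3617384-3617413 (Ndufa3, +), chr6:126849097-126849126 (Ndufa9, -), chr11:120098933-120098962 (Ndufaf8, +), chr19:44555393-44555422 (Ndufb8, -), chr3:51408915-51408944 (Ndufc1, -), chr13:114388045-114388074 (Ndufs4, -), chr13:73328433-73328462 (Ndufs6, -) and chr10:80249462-80249491 (Ndufs7, +), on GRCm38.
Ndufa3: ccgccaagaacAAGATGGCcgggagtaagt
Ndufa9: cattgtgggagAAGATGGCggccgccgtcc
Ndufaf8: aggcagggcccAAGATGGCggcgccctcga
Ndufb8: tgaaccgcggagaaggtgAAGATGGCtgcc
Ndufc1: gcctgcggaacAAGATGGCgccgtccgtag
Ndufs4: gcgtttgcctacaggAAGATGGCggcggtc
Ndufs6: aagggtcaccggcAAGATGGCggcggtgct
Ndufs7: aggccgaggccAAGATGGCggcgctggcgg
All 8 matches were on the strand of the gene and began 11 to 39 bases after the RefSeq start, counted from 1 at the start. The RefSeq entry nearest the main TSS was used, at up to 5 kb. Its start was 328 bp from the main TSS at Ndufs7 and 164 bp at Ndufs4, and at most 60 bp from it at the others. Among the 487 matches in reference promoters, 70.8% were on the strand of the gene and 54.2% began after the start. The letters contain ATG, and at 7 of the 8 members, all but Ndufaf8, this ATG was an annotated start codon. It was one at 65.9% of the 229 matches in reference promoters with the same strand and side. A start codon within 50 bases of the RefSeq start was present at 14 of 40 members (35%) and 12.8% of reference promoters, and 8 of those 14 and 14.7% of those reference promoters held the YY1 letters. The letters therefore overlap the beginning of the coding sequence at most of these members, and binding of the factor was not measured here.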

How the data were processed

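Peaks were called by the authors library by library and deposited in the broad (H3K4me3) and narrow (H3K4me1) layouts of MACS2. The caller's version, settings and control are not given in the sources used here. The submitters' processing notes name BWA, Picard, HOMER and Genrich, without roles, and the build mm10. The deposited fold enrichment is a linear ratio over local background, averaged over the peak in broad lists, and the deposited −log10 p-value and q-value belong to the same comparison. The deposited score was not used. No peak lay past a chromosome end (0) or on an unknown chromosome (0).

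Peaks were joined to 41451 TSSs of coding transcripts (GENCODE vM21 basic) at up to 5 kb, with Python 3.11.15, pandas 2.3.3, numpy 2.4.6 and scipy 1.17.1. Members and lists were chosen with earlier results of these data known, so values are descriptions without a test, and SDs are over 3 libraries. Members with values per library are the core subunits, the 5 at each end of width and of fold percentile, those with H3K4me1 in at least 2 libraries, and the Ndufa4 pair; some items are not reported here. Wilson intervals cover counting error only. The steps were tested on simulated peaks at genes set far apart with a single TSS each. That simulation did not cover shared starts or peak thresholds. The alternatives tried were distance, TSS choice, peak threshold, library number, neighbours and leaving out libraries.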

Additional observations from a re-analysis of the deposited data

How the results depend on the processing

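Of 51 alternative settings over the 4 summary values, 44 gave a value close to the one reported, within 1 SD over libraries for the 3 differences. The width ratio had no settled sign: the log2 value of 0.01 became −0.12 when the peak was required to lie over a TSS, −0.11 with a −log10 q-value of at least 5, −0.14 with the 10000 best peaks per library and −0.10 with the summed length of peaks. The mean fold ratio of 0.22 stayed positive under its 12 alternatives. It fell to 0.10 ± 0.13 (SD, n = 3) with the q-value limit, which was smaller than its spread, and to 0.086 ± 0.075 with the 10000 best peaks. The H3K4me1 difference of 0.84 percentage points had no settled sign either. Its SD over libraries was 9.93 points, so a value of the other sign could still count as close. It ranged from −9.32 with the 10000 best peaks to 6.47 without H3K4me1 replicate 2. With the q-value limit it was −4.56, and among genes with H3K4me3 in at least 1 of 3 libraries 3.56. The cause of these changes was not tested. Leaving out 1 library gave −0.04 to 0.03 for width, 0.15 to 0.26 for fold and −2.90 to 6.47 points for H3K4me1, where the lowest value was without H3K4me1 replicate 1 and the highest without replicate 2, and 46 members with H3K4me3 each time. The number of members with H3K4me3 in at least 2 of 3 libraries was lowest, 40 of 46, with the 10000 best peaks. At that setting the number of all coding genes with the mark also fell, to 7315 of 21864 from 13039. Settings chosen after seeing the data were the share among genes with H3K4me3 over a TSS (−3.08 points) and a single principal TSS per gene. Differences were taken within each library, and the replicate numbers shared by the marks were not used. No paired analysis was possible because the results come from no test. Depth is unknown, so an H3K4me1 peak that was not called says nothing of its absence.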
